A study of Mus musculus with 2 samples.

Results

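Central vein endothelial cells line the vessels that collect blood from the liver sinusoids, and their barcodes were picked out of 3′ scRNA-seq libraries of hepatic endothelial cells by raw UMI counts. A barcode was taken as endothelial with at least 1500 UMIs, at least 750 genes, at least 2 UMIs of *Pecam1*, *Cdh5* and *Ptprb* together and 0 UMIs of *Ptprc*, *Adgre1*, *Cd79a* and *Dcn*. It was taken as central vein when it also had at least 3 UMIs of *Rspo3* and at least 1 UMI of *Vwf* or *Selp*. The rule found 258 barcodes among 8358 endothelial barcodes and 12755 barcodes in all, namely 121 control barcodes and 137 barcodes of the Maf LSEC-KO library. Endothelial barcodes with 0 UMIs of *Vwf*, *Selp* and *Rspo3*, 3784 in control and 2828 in Maf LSEC-KO, served as comparison barcodes.

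The study asked what loss of the transcription factor c-Maf does to liver endothelium. Maf LSEC-KO mice (labelled KO) carried 2 floxed *Maf* alleles and the *Clec4g-iCre* transgene, a driver aimed at liver sinusoidal endothelial cells (LSECs). Control mice (labelled WT) were littermates without Cre that carried 1 or 2 floxed *Maf* alleles. Each library came from 1 pool of 3 mice, enriched for CD146+ cells, and which sexes and ages entered each pool is not given in the sources used here. With 1 library per condition there was no test between the conditions and no p-value.

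The endothelium of central veins and of the sinusoids next to them is a source of Wnt signals for the neighbouring hepatocytes. *Wnt2* and *Wnt9b* encode Wnt ligands, and *Rspo3* encodes R-spondin 3, which strengthens Wnt signalling by keeping Frizzled receptors at the cell surface. In the adult liver these signals maintain the pericentral hepatocyte programme, which includes glutamine synthesis. *Vwf* (von Willebrand factor) and *Selp* (P-selectin) encode cargo of Weibel-Palade bodies, storage granules of endothelial cells that are not limited to veins. Sinusoidal endothelium instead is fenestrated, scavenges through receptors such as stabilin-2 (*Stab2*) and the Fc receptor *Fcgr2b*, and makes little von Willebrand factor.

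The central vein barcodes had a median of 10859 UMIs in control (range 1648 to 45129) and 13871 in Maf LSEC-KO (1665 to 93495), and medians of 3606 and 4158 genes. Levels are given as CPM, the UMIs of a gene summed over the barcodes and scaled to 1000000 UMIs, with mitochondrial genes and those of ribosomal proteins kept out of the total (which was 1232891 UMIs for control and 1874121 for Maf LSEC-KO), with exact 95% Poisson intervals. Ratios carry exact conditional 95% intervals and shares exact 95% Clopper-Pearson intervals. All of these cover counting error only, not the spread between barcodes, mice or libraries. A gene was called higher or lower when its CPM differed at least 2-fold, among genes with at least 50 CPM in one of the groups compared.

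The values that chose the barcodes differed between the libraries and are a description. In control, the lowest, median and highest UMI counts were 3, 20 and 209 for *Rspo3*, 0, 0 and 95 for *Vwf*, and 0, 2 and 14 for *Selp*. In Maf LSEC-KO, they were 3, 34 and 178 for *Rspo3*, 0, 19 and 93 for *Vwf*, and 0, 3 and 19 for *Selp*. Most control barcodes therefore entered through *Selp*, since 69 of 121 had 0 *Vwf* UMIs and 5 had 0 *Selp* UMIs, while 3 of 137 Maf LSEC-KO barcodes had 0 *Vwf* UMIs and 28 had 0 *Selp* UMIs. Both transcripts were found in 47 control barcodes (38.8%) and 106 Maf LSEC-KO barcodes (77.4%). At the edge of the rule, 32 control barcodes had exactly 1 UMI of *Vwf* and *Selp* together and 97 with enough *Rspo3* had none. The same numbers in Maf LSEC-KO were 5 and 16. At the *Rspo3* limit, 5 control and 4 Maf LSEC-KO barcodes had exactly 3 UMIs, and 6 and 9 barcodes with *Vwf* or *Selp* had 2. The 3 genes lie on chromosomes 10 (*Rspo3*, 29452416 to 29535867, minus strand), 6 (*Vwf*, 125546774 to 125686679, plus strand) and 1 (*Selp*, 164115264 to 164150026, plus strand) of the mouse build GRCm38.

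*Wnt9b* (chromosome 11, 103727364 to 103749821, minus strand), a central vein marker that the rule did not use, was detected in 81 of 121 control and 93 of 137 Maf LSEC-KO central vein barcodes. These shares were 66.9% (57.8 to 75.2%) and 67.9% (59.4 to 75.6%), and 35.0% and 37.7% after each barcode was thinned to 3000 UMIs. Among comparison barcodes a *Wnt9b* UMI was found in 5.05% and 1.94%, with median depths of 8278.5 and 13569 UMIs. Summed *Wnt9b* was 28.4-fold higher in central vein than in comparison barcodes in control and 96.1-fold higher in Maf LSEC-KO. It set the members apart less from their nearest neighbours. Barcodes with at least 3 *Rspo3* UMIs but no *Vwf* or *Selp* UMI, outside the rule, had 128 CPM of *Wnt9b* in control and 113 CPM in Maf LSEC-KO, and control members with 1, 2 and 3 to 5 UMIs of *Vwf* and *Selp* had 175, 112 and 178 CPM. Immune barcodes, which should lack the genes of the rule, held 3 or more *Rspo3* UMIs in 0 of 59 barcodes in control (a count of 0 allows a share of up to 5.08%) and in 1 of 137 in Maf LSEC-KO, at median depths of 4311 and 4762 UMIs. At least 1 *Vwf* or *Selp* UMI was found in 2 of 59 (3.39%) and 6 of 137 (4.38%) immune barcodes, so that a single such UMI, on which 32 control and 5 Maf LSEC-KO central vein barcodes rested, is not read as expression.

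**Figure D1:**
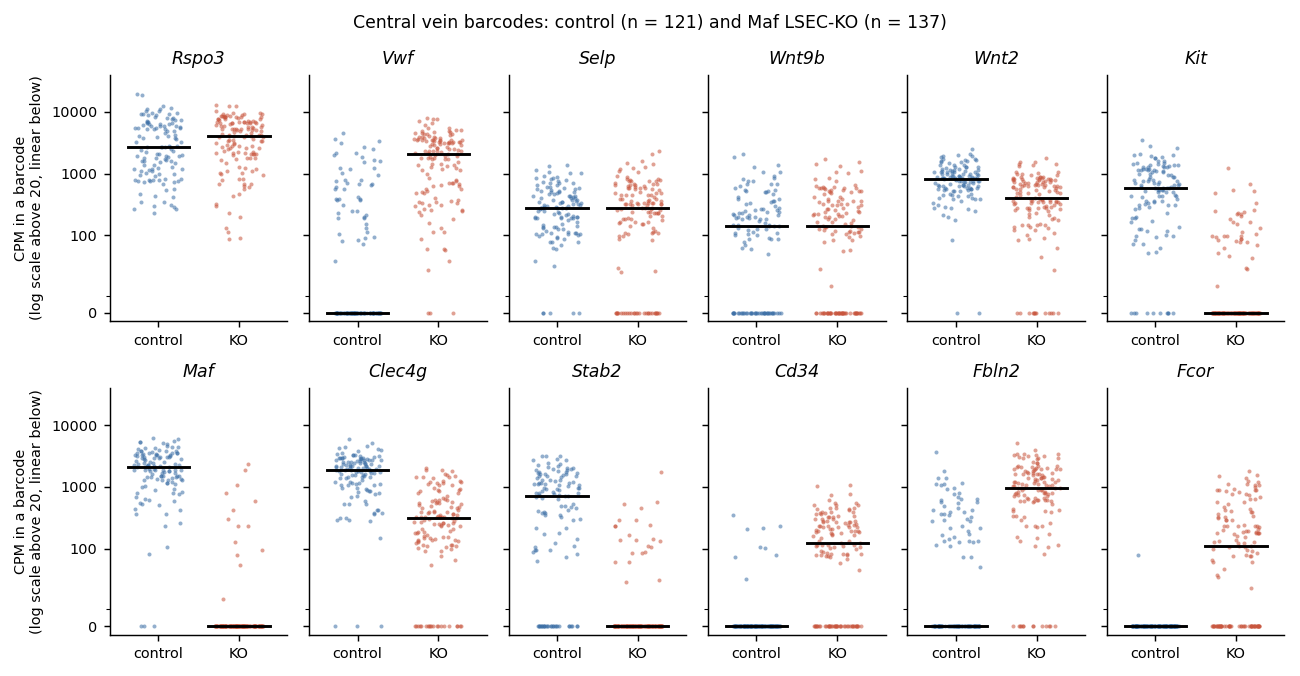
CPM of 12 genes in each central vein barcode of the control (121 barcodes) and Maf LSEC-KO (137 barcodes) libraries, 1 point per barcode, with a black line at the median. The vertical axis is linear below 20 CPM and logarithmic above. *Rspo3* and *Wnt9b* overlapped throughout, whereas *Maf*, *Kit* and *Stab2* were at 0 in most Maf LSEC-KO barcodes and *Vwf*, *Fbln2* and *Cd34* were at 0 in most control barcodes.

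The control barcodes were not uniform. Those with few *Vwf* and *Selp* UMIs carried the transcripts of sinusoidal endothelium at nearly the level of barcodes that had *Rspo3* but neither *Vwf* nor *Selp*. *Stab2* stood at 1451 CPM in the 97 control barcodes with at least 3 *Rspo3* UMIs that lay outside the rule, and at 1491, 1079.5, 1093 and 329 CPM in the 32, 23, 24 and 42 central vein barcodes with 1, 2, 3 to 5, and 6 or more UMIs of *Vwf* and *Selp*. *Maf* over the same steps was 2795 outside the rule and then 3375, 2915, 2303 and 1274 CPM. The sinusoidal genes thus went against the name of a central vein cell in the control barcodes with 1 to 5 UMIs, and least in the 42 barcodes of the last step, which also had the most *Rspo3* (6196 CPM) and *Wnt9b* (389 CPM).

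*Bmp4*, a bone morphogenetic protein, and *Edn1*, the endothelin-1 precursor, were concentrated in that last step. In control, *Bmp4* went from 9.49 CPM outside the rule to 798 CPM with 6 or more UMIs, and *Edn1* from 4.22 to 374 CPM. *Wnt2* showed no such gradient, with 684, 818, 751, 757 and 833 CPM over the steps. In Maf LSEC-KO the steps held 16, 5, 6, 19 and 107 barcodes, so that 107 of 137 Maf LSEC-KO but 42 of 121 control central vein barcodes had 6 or more UMIs. Because the mix of barcodes differed between the libraries, results are given below for all central vein barcodes and, where it matters, for those with 6 or more UMIs. *Vwf* itself was part of that limit, and whether it marks the same cells in both conditions was not tested.

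**Figure D2:**
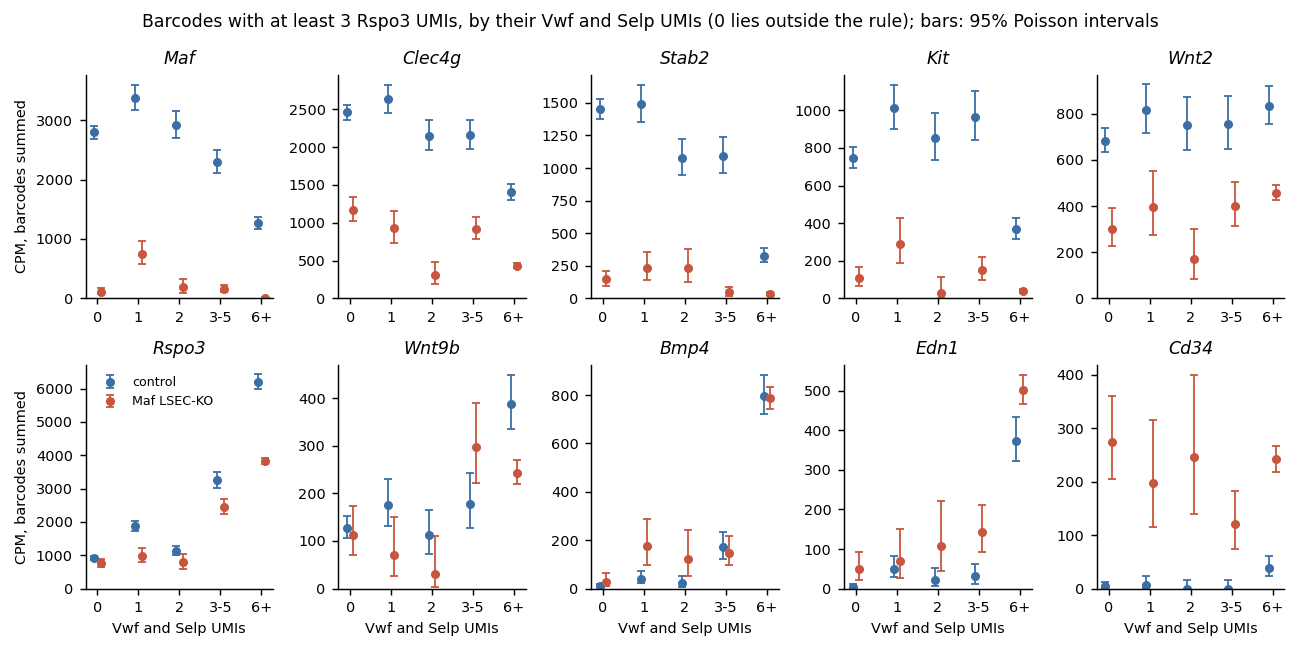
Summed CPM of 10 genes (vertical axes, linear) in barcodes with at least 3 *Rspo3* UMIs, grouped by their UMIs of *Vwf* and *Selp* together (horizontal axes), in control (blue) and Maf LSEC-KO (red), with exact 95% Poisson intervals. The step at 0 lies outside the rule. In control *Stab2*, *Kit* and *Maf* were lowest and *Rspo3*, *Wnt9b*, *Bmp4* and *Edn1* highest at 6 or more UMIs, and *Maf* was near 0 CPM in Maf LSEC-KO at that step.

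Central vein barcodes made up 2.81% of endothelial barcodes in control (2.34 to 3.35%) and 3.38% in Maf LSEC-KO (2.85 to 3.98%). With every barcode thinned to 3000 UMIs, the rule found 75 of 3809 (1.97%) and 97 of 3825 (2.54%). The intervals overlapped in both cases. They did not under narrower rules: with at least 5 *Rspo3* UMIs and at least 3 UMIs of *Vwf* and *Selp*, 64 of 4306 control barcodes (1.49%, 1.15 to 1.89%) and 124 of 4052 of Maf LSEC-KO (3.06%, 2.55 to 3.64%) were left, and with 6 or more UMIs of *Vwf* and *Selp* 42 (0.975%, 0.704 to 1.32%) and 107 (2.64%, 2.17 to 3.18%). The narrower rules were applied to barcodes that were not thinned, and endothelial barcodes had a median of 8588.5 UMIs in control and 14229 in Maf LSEC-KO. Whether more central vein cells, more *Vwf* per cell or the difference in depth lay behind this was not tested. The parts of the rule moved apart, however. Barcodes with a *Vwf* or *Selp* UMI but 0 *Rspo3* UMIs numbered 122 of 4306 in control (2.83%) and 928 of 4052 in Maf LSEC-KO (22.9%), whereas barcodes with at least 3 *Rspo3* UMIs and neither *Vwf* nor *Selp* numbered 97 (2.25%) and 16 (0.395%). Among barcodes with at least 3 *Rspo3* UMIs, a *Vwf* or *Selp* UMI was found in 55.5% in control and 89.5% in Maf LSEC-KO. These counts were not thinned either, at the median depths just given. They also count a single *Vwf* or *Selp* UMI, which is not read as expression here. The 2.83% of control lay below the share of immune barcodes with such a UMI, and the 22.9% of Maf LSEC-KO lay above it. These shares are not like for like. The immune share set no condition on *Rspo3* and came from few barcodes at lower median depths (4311 UMIs in control and 4762 in Maf LSEC-KO).

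*Maf* (chromosome 8, 115682942 to 115707794, minus strand), the deleted gene, was low in Maf LSEC-KO central vein barcodes. Its level in control was 2268 CPM (interval 2185 to 2353), and in Maf LSEC-KO it was 63.0 CPM (interval 52.1 to 75.4), a log2 ratio of -5.17 (-5.45 to -4.90). Barcodes with 2 or more *Maf* UMIs numbered 115 among the 121 of control (95%) and 10 among the 137 of Maf LSEC-KO (7.30%, 3.56 to 13%), and after thinning their shares were 86.3% and 3.08%. In comparison barcodes *Maf* stood at 3504 and 124 CPM (log2 ratio -4.82), and 10.7% of those of Maf LSEC-KO had at least 2 UMIs. With 6 or more *Vwf* and *Selp* UMIs it stood at 1274 and 9.05 CPM. Of the *Maf* UMIs left in Maf LSEC-KO central vein barcodes, 61 (51.7%) came from 1 barcode.

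*Clec4g*, the lectin gene whose promoter drives the Cre, was detected in 118 of 121 control central vein barcodes and 117 of 137 of Maf LSEC-KO. Its level was 1973 CPM in control and 493 CPM in Maf LSEC-KO, a log2 ratio of -2.0 (-2.11 to -1.89), against 3075 and 1520.4 CPM (-1.02) in comparison barcodes. A *Clec4g* UMI was also found in 22 of 59 immune barcodes in control (37.3%) and 54 of 137 in Maf LSEC-KO (39.4%) at median depths of 4311 and 4762 UMIs, so a single *Clec4g* UMI is not read as expression here.

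The 10 Maf LSEC-KO barcodes with 2 or more *Maf* UMIs differed from the 123 with none in the genes of sinusoidal endothelium. *Dnase1l3*, a secreted nuclease, stood at 492 against 2.46 CPM, *Fcgr2b* at 315 against 70.7 CPM, *Kit* at 265 against 43.0 CPM and *Stab2* at 208 against 32.0 CPM. *Vwf* was lower in them, with 839 against 1863 CPM. *Rspo3* was 2776 against 3572 CPM. *Cd34* (240 against 227 CPM) and *Ly6c1* (101 against 78.7 CPM), both listed as raised without *Maf* in the study, were not lower in the 10. These sums rest on few barcodes. The barcode with 61 *Maf* UMIs, which had 1 *Vwf* and 0 *Selp* UMIs and so lay at the edge of the rule, held 34 of the 78 *Dnase1l3*, 18 of the 42 *Kit* and 15 of the 33 *Stab2* UMIs, and the medians over the 10 were 1.5 UMIs for *Dnase1l3*, 1 for *Kit* and 1.5 for *Stab2*. Another of the 10 also held 748 *Ccl21a* UMIs, a lymphatic marker.

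Against control, 229 of 4496 genes (5.09%) were at least 2-fold higher in Maf LSEC-KO central vein barcodes and 177 (3.94%) at least 2-fold lower. In the comparison barcodes of the same libraries 369 of 4516 (8.17%) were higher and 248 (5.49%) lower. With 6 or more *Vwf* and *Selp* UMIs, 180 of 4486 (4.01%) were higher and 110 (2.45%) lower. The median log2 ratio of all tested genes was 0.12 in central vein barcodes, 0.11 in comparison barcodes and 0.07 in those with 6 or more UMIs, the level against which the medians of gene groups below are to be read. The counts of genes called in each group below are likewise to be read against the shares of all tested genes just given.

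The Wnt and R-spondin ligands of the central vein stayed within 2-fold between the conditions in all central vein barcodes. *Rspo3* was 3688 CPM in control and 3466 CPM in Maf LSEC-KO (log2 ratio -0.09, -0.14 to -0.03), a value the rule bears on. *Wnt9b* was 248 and 233 CPM (-0.09, -0.30 to 0.13). *Wnt2* (chromosome 6, 17988940 to 18030585, minus strand) was 801 and 439 CPM (-0.87, -1.0 to -0.73). Of the 8 ligands listed, 3 reached 50 CPM and 0 of them passed 2-fold in either direction. That count includes *Rspo3*, of which the rule required at least 3 UMIs in each barcode. Among barcodes with 6 or more *Vwf* and *Selp* UMIs, the log2 ratios were -0.69 for *Rspo3*, -0.67 for *Wnt9b* and -0.87 for *Wnt2*, so that for *Rspo3* and *Wnt9b* the ratio depended on which barcodes were counted. In comparison barcodes *Wnt2* stood at 249 and 32.6 CPM (-2.94), so that it was 3.21-fold higher in central vein than in comparison barcodes of control and 13.5-fold higher in Maf LSEC-KO. Of 14 Wnt receptors, inhibitors and endothelial targets, 6 were tested, of which the Frizzled receptor *Fzd6* was higher (50.3 and 105 CPM) and *Nkd1*, a feedback inhibitor induced by Wnt signalling, was lower (54.3 and 22.9 CPM). That is 1 gene in each direction, beside 5.09% and 3.94% of all tested genes, and with 6 or more *Vwf* and *Selp* UMIs 0 of 5 tested passed in either direction (*Fzd6* 0.64, and *Nkd1* under 50 CPM).

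Other genes of the pericentral endothelium were split. *Kit*, the stem cell factor receptor, was lower in Maf LSEC-KO, at 724 and 60.8 CPM (-3.57, -3.87 to -3.29), and was detected in 111 of 121 and 39 of 137 barcodes. *Thbd* (thrombomodulin) was 522 and 313 CPM (-0.74), and *Cdh13* (T-cadherin) was 750.3 and 435 CPM (-0.79). Thus 1 of the 4 listed pericentral genes passed 2-fold in central vein barcodes (median log2 ratio -0.83), and 4 of 4 did in comparison barcodes (median -2.60). *Cdh13* there went from 117 to 9.50 CPM (-3.63). *Cdh13* was 6.39-fold higher in central vein than in comparison barcodes in control and 45.8-fold higher in Maf LSEC-KO, whereas *Kit* was 2.28-fold higher in control and not higher in Maf LSEC-KO (ratio 0.917).

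Several genes of sinusoidal endothelium were lower in Maf LSEC-KO central vein barcodes. Of 12 listed, 6 were lower and 0 higher, with a median log2 ratio of -1.16, and the list summed to 12740 CPM in control and 3766 CPM in Maf LSEC-KO. *Dnase1l3* was 2394 and 44.3 CPM (-5.76, -6.09 to -5.44), a 54.1-fold lower level, and was found in 108 of 121 and 10 of 137 barcodes. *Stab2* was 887 and 51.8 CPM (-4.10, -4.41 to -3.80). *Fcgr2b* was 1399 and 93.9 CPM (-3.90), and *Mrc1*, the mannose receptor, 1608 and 341 CPM (-2.24). The lowest, median and highest *Dnase1l3* UMI counts were 0, 20 and 102 in control and 0, 0 and 34 in Maf LSEC-KO, so that the ranges overlapped from 0 to 34 UMIs, past the control median. Among barcodes with 6 or more *Vwf* and *Selp* UMIs, 6 of 12 were again lower (median -0.98), with *Stab2* at 329 and 34.9 CPM.

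The other sinusoidal genes were within 2-fold. *Stab1*, the other stabilin, was 1120.1 and 599 CPM (-0.90), *Oit3* 903 and 703 CPM (-0.36), and *Gata4*, a transcription factor of sinusoidal endothelium, 267 and 275 CPM (0.05). *Lyve1*, a hyaluronan receptor, was already low in central vein barcodes, at 122 and 161 CPM (0.40), against 745 and 396 CPM (-0.91) in comparison barcodes. Of 12 genes listed here as lowered without *Maf* in the study, 8 were lower (median -2.92). Among them were the peptidase *Dpp4* (709 and 42.7 CPM) and the cobalamin carrier *Tcn2* (852 and 115 CPM). The other 4 were *Lyve1*, *Wnt2*, *Wnt9b* and *Rspo3*, the last of which the rule used. Since that list came from mice of these genotypes and was chosen with earlier results of these data known, it is not independent evidence of its direction.

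**Figure D3:**
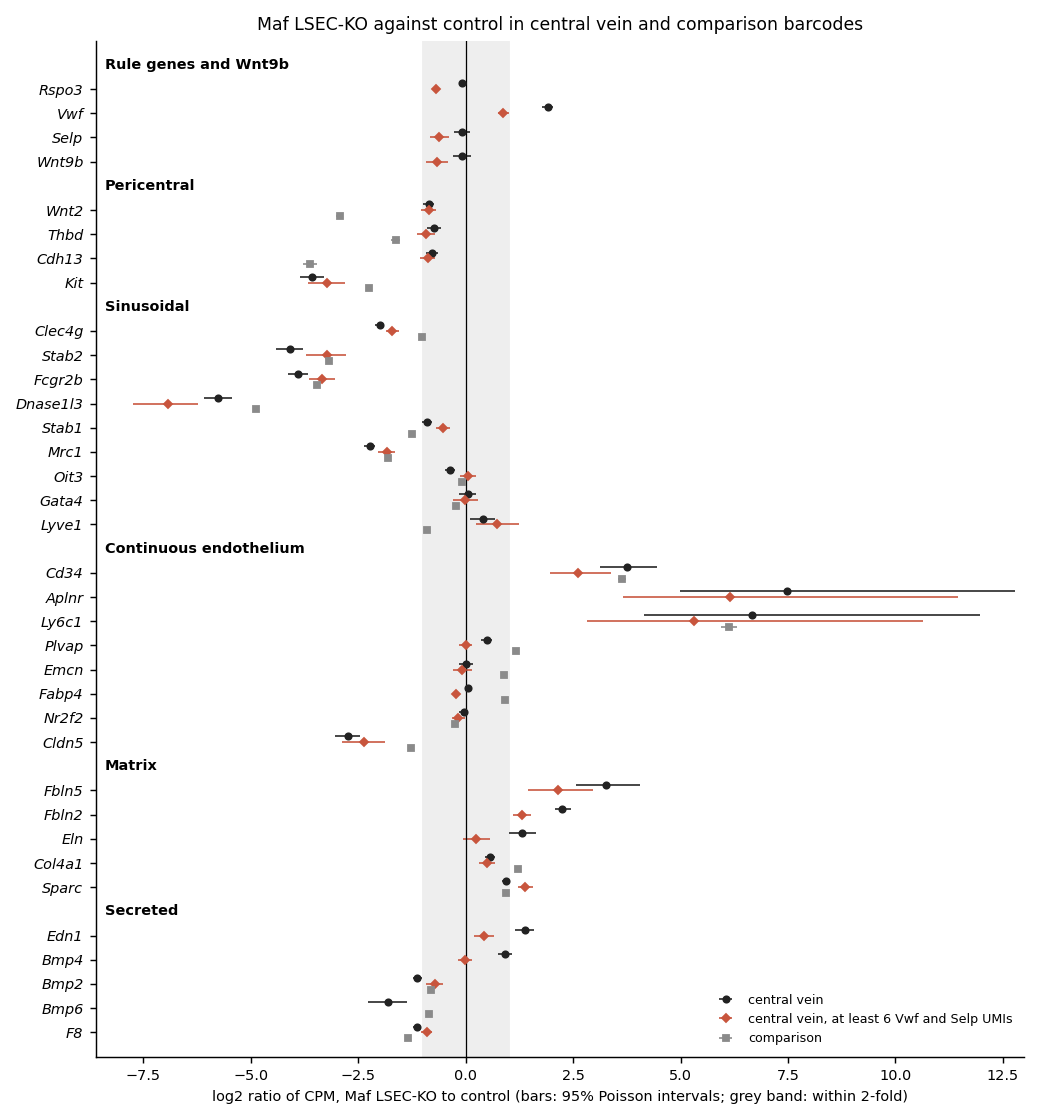
Log2 ratio of CPM in Maf LSEC-KO to control (horizontal axis) for named genes in all central vein barcodes (black circles), in central vein barcodes with 6 or more *Vwf* and *Selp* UMIs (red diamonds) and in comparison barcodes (grey squares, left out where the gene had under 50 CPM or was used by the rule), with exact conditional 95% intervals. The grey band spans ratios within 2-fold. *Wnt2*, *Thbd* and *Cdh13* lay within the band in central vein barcodes and below it in comparison barcodes, and *Dnase1l3*, *Stab2*, *Fcgr2b* and *Kit* lay below it in each set.

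Of 14 genes listed together for venous and continuous endothelium, 4 were higher in Maf LSEC-KO and 1 lower. *Cd34*, a sialomucin of continuous capillaries, was 17.0 and 228 CPM (3.74, 3.11 to 4.45), found in 9 of 121 and 95 of 137 barcodes. After thinning, a *Cd34* UMI was found in 3.42% and 36.2%. *Aplnr*, the apelin receptor, had 1 UMI in control and 272 in Maf LSEC-KO (145 CPM, in 55 barcodes), a log2 ratio of 7.48 with an interval of 4.99 to 12.79. *Ly6c1* likewise had 1 UMI in control and 153 in Maf LSEC-KO (81.6 CPM, log2 ratio 6.65, 4.15 to 11.97), well below the 598 CPM of Maf LSEC-KO comparison barcodes. *Ly6a* was 825 and 2046 CPM (1.31, and 0.83 with 6 or more *Vwf* and *Selp* UMIs). These were the 4 higher genes. The lower gene was *Cldn5*, of the tight junction (427 and 64.0 CPM, -2.74), and the other 9 were within 2-fold (median 0.06, and -0.10 with 6 or more *Vwf* and *Selp* UMIs). The 9 included the venous transcription factor *Nr2f2* (1007 and 974 CPM), the venous receptor *Ephb4* (375 and 359 CPM), *Emcn* (453 and 456 CPM), *Fabp4* (5402 and 5579.7 CPM) and *Plvap*, which forms the diaphragms of fenestrae (615 and 862 CPM).

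By ratio, *Fcor* led all genes, with 1 UMI in control and 613 in Maf LSEC-KO (327 CPM, log2 ratio 8.66, 6.17 to 13.96). It was found in 87 of 137 Maf LSEC-KO barcodes, and in comparison barcodes it stood at 4.18 and 925 CPM. *Pcp4l1* had 1 UMI in control and 116 CPM in Maf LSEC-KO. Of the 15 genes listed here as raised without *Maf* in the study, 7 reached 50 CPM in central vein barcodes. Of these, 5 were higher (median 3.74), and in comparison barcodes 8 of the 10 tested were higher (median 2.90). This list too came from the study's own mice and was chosen with earlier results of these data known. *Igfbp5*, 1 of the 5, had 409 UMIs in Maf LSEC-KO, 350 of them in 1 barcode.

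Matrix genes were higher or within 2-fold. Of 15 listed genes of the matrix and basement membrane 10 were tested, 4 were higher and 0 lower, with a median log2 ratio of 0.93 (3 of 11 higher and a median of 0.66 among barcodes with 6 or more *Vwf* and *Selp* UMIs). *Fbln2*, the matrix protein fibulin-2, was 216 and 1027 CPM (2.25, 2.07 to 2.44), in 51 of 121 and 124 of 137 barcodes, and 1.31 with 6 or more UMIs. *Fbln5*, which helps to assemble elastic fibres, was 13.8 and 132 CPM (3.26, and 2.15 with 6 or more UMIs). *Eln* (elastin) was 88.4 and 220.4 CPM (1.32), but its ratio was 0.24 with 6 or more UMIs. *Lama4*, a laminin chain, was 75.4 and 166 CPM (1.14, and at the limit of 2-fold with 6 or more UMIs). *Sparc* was 886 and 1691 CPM (0.93, but 1.38 with 6 or more UMIs), and *Col4a1*, a chain of basement membrane collagen, 633 and 936 CPM (0.56), against a log2 ratio of 1.22 in comparison barcodes.

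Secreted signals moved both ways. *Bmp2*, which drives hepcidin expression in hepatocytes, was 1261 and 578 CPM (-1.12, -1.24 to -1.01) and *Bmp6*, with the same role, 109 and 30.9 CPM (-1.81). *Kitl* (stem cell factor, the ligand of Kit) was 124 and 257 CPM (1.05), and *Pdgfb* 29.2 and 74.2 CPM (1.34). These were the 2 lower and the 2 higher of 6 tested angiocrine ligands out of 12 listed (median 0.51), and with 6 or more *Vwf* and *Selp* UMIs each of the 4 was within 2-fold, at -0.73 for *Bmp2*, -0.27 for *Bmp6*, 0.62 for *Kitl* and 0.71 for *Pdgfb*. *Bmp4* (chromosome 14, 46383520 to 46390669, minus strand) was 359 and 677 CPM (0.92), and the difference was gone among barcodes with 6 or more *Vwf* and *Selp* UMIs (798 and 788 CPM, -0.02). The neuropeptide gene *Nts* was 29.2 and 328 CPM, found in 7 and 48 barcodes, with 30.9% of its Maf LSEC-KO UMIs in 1 barcode.

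Among 12 genes of Weibel-Palade bodies and haemostasis, 9 were tested, 4 were higher and 1 lower, with a median log2 ratio of -0.06. *Vwf* was 457 and 1719 CPM (1.91, 1.78 to 2.04) and *Selp* 330.1 and 312 CPM (-0.08), both of which the rule used. With 6 or more of their UMIs these ratios were 0.88 and -0.62. *Edn1*, also stored in the granules, was 169 and 435 CPM (1.37, 1.15 to 1.59) and 0.43 with 6 or more UMIs. *Cd63*, a tetraspanin of the granule membrane, was 32.4 and 133 CPM (2.04) and 1.43 with 6 or more. *F8*, clotting factor VIII, was 2007 and 909.8 CPM (-1.14) and -0.91 with 6 or more. The fourth higher gene, *Mmrn1*, rested on 1 barcode with 114 of its 116 UMIs. Of 9 genes of leukocyte adhesion 4 were tested, and *Sele* (E-selectin, 6.49 and 76.8 CPM, in 3 and 33 barcodes) and *Icam1* (87.6 and 185 CPM) were higher, of which *Icam1* was within 2-fold with 6 or more *Vwf* and *Selp* UMIs (0.62) and *Sele* was not (2.58), whereas *Vcam1* was 342 and 375 CPM.

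Immediate early genes, which respond within minutes to stimuli and also to tissue dissociation, were higher in Maf LSEC-KO. Of 8 tested, 7 were higher, with a median log2 ratio of 1.90, and in comparison barcodes 8 of 8 were higher with a median of 1.6. *Egr1* was 51.1 and 388 CPM (2.92), *Fos* 70.6 and 331 CPM (2.23) and *Jun* 443 and 1313 CPM (1.57). The handling of the pools and the genotype cannot be told apart, and the part of these genes in the other ratios was not tested. Of 6 genes that respond to blood flow 0 passed 2-fold (median 0.45), with *Klf2* at 633 and 1142 CPM and *Klf4* at 213 and 343 CPM. Of 8 tested Maf family members and endothelial transcription factors, *Maf* alone passed 2-fold in all central vein barcodes (median 0.23). With 6 or more *Vwf* and *Selp* UMIs, 1 of 8 tested was higher (log2 ratio 1.10) and *Maf* was again the only lower one. Of 10 portal and arterial genes 7 were tested, with 1 higher (the kinase *Bmx*, 27.6 and 95 CPM, within 2-fold with 6 or more *Vwf* and *Selp* UMIs at a log2 ratio of 0.82) and 1 lower (the connexin *Gja4*, 167 and 72.6 CPM). Beside 5.09% and 3.94% of all tested genes, 1 gene in each direction is not read as a result about this list. With 6 or more *Vwf* and *Selp* UMIs, 2 of 7 were higher, *Efnb2* (1.38) and *Dll4* (1.15), which were within 2-fold in all central vein barcodes, and *Gja4* was again lower (-1.20).

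Cycling barcodes were found in the Maf LSEC-KO library. UMIs of 2 or more cycling markers were present in 0 of 121 control central vein barcodes, which allows a share of up to 2.48%, and in 22 of 137 in Maf LSEC-KO (16.1%, 10.3 to 23.3%). After thinning to 3000 UMIs the counts were 0 of 117 and 7 of 130 (5.38%). In comparison barcodes the shares were 2.19% and 26.1%. *Mki67*, the gene of the proliferation antigen Ki-67, stood at 3.24 and 171 CPM, in 1 and 20 barcodes, and the 5 highest barcodes held 80.6% of its Maf LSEC-KO UMIs. *Top2a*, a topoisomerase of dividing cells, stood at 1.62 and 144 CPM.

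Against the comparison barcodes, 146 of 4225 genes (3.46%) were higher and 63 (1.49%) lower in control central vein barcodes, and 230 of 4562 (5.04%) higher and 143 (3.13%) lower in those of Maf LSEC-KO. Since the rule chose the barcodes by their own transcripts, these ratios describe the barcodes and test nothing. Beside the genes of the rule, *Bmp4* led in both libraries, with 359 CPM against 0.0996 in control and 677 against 0.751 in Maf LSEC-KO. *Fmo2*, a flavin monooxygenase, stood at 207 against 1.20 and 704 against 6.55 CPM. *Entpd1* (CD39, an ectonucleotidase that limits platelet activation) stood at 221 against 2.36 and 415 against 12.3 CPM. The growth factor *Tgfb2* stood at 112 against 0.963 and 156 against 3.15 CPM, and the protease *Prss23* at 101 against 0.0996 and 186 against 2.22 CPM.

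The matrix genes *Fbln2*, *Eln* and *Col14a1* belonged to the same set. *Col14a1*, a collagen that associates with fibrils, stood at 54.3 against 1.26 CPM in control and 190.0 against 0.578 CPM in Maf LSEC-KO. *Samd5* (65.7 against 0.232, and 162 against 1.21 CPM) and *Rassf9* (71.4 against 0.432, and 208 against 7.10 CPM) completed it. Several of these were also higher in Maf LSEC-KO than in control, among them *Fmo2* (log2 ratio 1.77) and *Col14a1* (1.81), but with 6 or more *Vwf* and *Selp* UMIs the ratios of *Fmo2* (0.78), *Col14a1* (0.78), *Rassf9* (0.54), *Entpd1* (0.14), *Samd5* (0.32), *Tgfb2* (-0.39) and *Prss23* (-0.30) were all within 2-fold. Lower in central vein than in comparison barcodes of both libraries were the scavenger receptor *Msr1* (log2 ratios -3.48 and -2.42) and the arterial genes *Dll4*, a Notch ligand (-2.06 and -1.80), and *Efnb2*, ephrin-B2 (-1.91 and -1.51). The portal and arterial list as a whole was split. In control, 3 of 6 tested genes were lower and 1 higher (median -0.73). In Maf LSEC-KO, 2 of 7 were lower and 2 higher (median -0.40). Of the 12 sinusoidal genes 2 were lower in central vein barcodes of control (median -0.77) and 7 in those of Maf LSEC-KO (median -1.08).

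**Figure D4:**
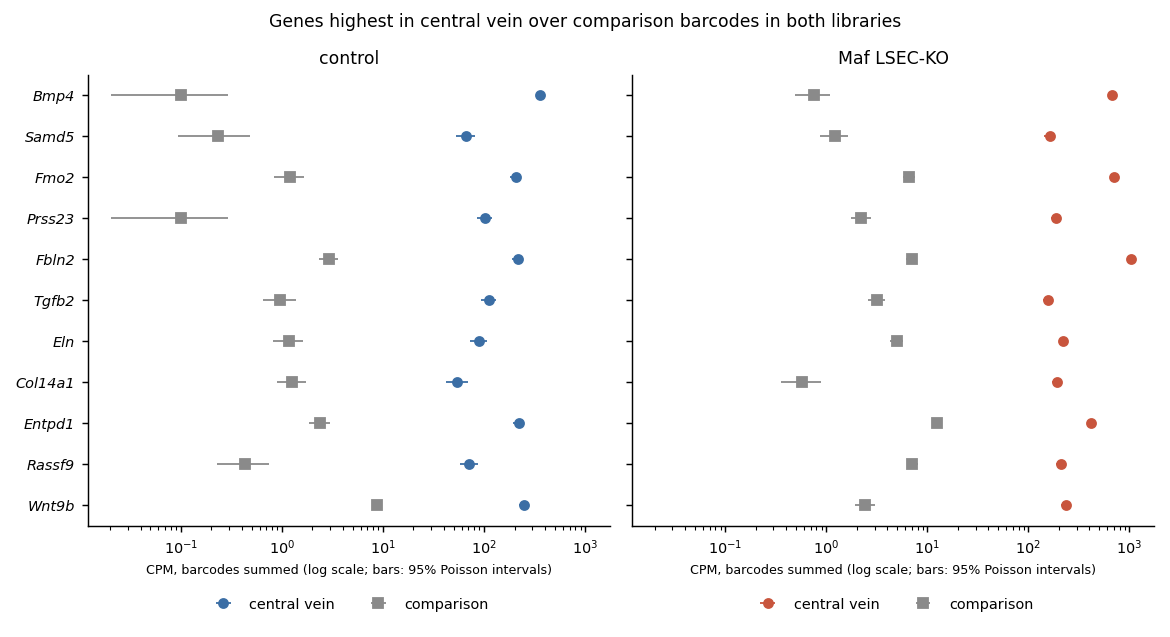
CPM on a logarithmic axis (horizontal) of the 10 genes outside the rule that led over comparison barcodes in both libraries and of *Wnt9b*, in central vein (coloured circles) and comparison barcodes (grey squares) of control (left) and Maf LSEC-KO (right), with exact 95% Poisson intervals. Every gene lay above 50 CPM in central vein barcodes, and the highest level in comparison barcodes was 12.3 CPM, for *Entpd1* in Maf LSEC-KO.

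As sums, transcripts of other cell types were low in central vein barcodes. Counting hepatocyte, stellate, smooth muscle, macrophage, lymphoid and platelet markers together, many barcodes held 2 or more. Left without them were 90 of 121 control and 77 of 137 Maf LSEC-KO central vein barcodes. Of all endothelial barcodes, 2775 of 4306 and 2254 of 4052 were left. Summed over each list, hepatocyte markers stood at 75.4 CPM in control and 55.5 CPM in Maf LSEC-KO, stellate cell markers at 17.0 and 31.5 CPM with *Lrat*, *Col1a1* and *Dcn* at 0 in both (the rule required 0 *Dcn*), smooth muscle markers at 2.43 and 8.54 CPM, macrophage markers at 24.3 and 39.5 CPM, lymphoid markers at 2.43 and 0.534 CPM, cholangiocyte markers at 0.811 and 6.94 CPM and platelet markers at 16.2 and 37.4 CPM with *Ppbp* at 0 in both. Markers of 2 lists came from single barcodes. Haemoglobin genes summed to 7339 CPM in control, where 1 barcode held 4645 of 4649 *Hbb-bs* UMIs. Lymphatic markers summed to 486 CPM in Maf LSEC-KO, where 1 barcode held 748 of 750 *Ccl21a* UMIs, against 3.24 CPM in control. That barcode had 3 *Rspo3* UMIs, 2 *Selp* UMIs and 0 *Vwf* UMIs, at the edge of the rule.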

How the data were processed

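A single 10x 3′ library of CD146+ hepatic endothelial cells, pooled from 3 mice, was made per condition. The authors deposited raw UMI counts per gene and barcode for 32285 genes, made with Cell Ranger 6.0.2 on mm10 (Seurat 5.0.1 is also named in the submitters' processing notes). The study subtracted the mean of empty droplets in its own analysis, and the whole-number counts used here were taken as deposited. Each library held 5664 (control) and 7091 (Maf LSEC-KO) barcodes with 47681895 and 89872764 UMIs, of which 4961 and 5423 passed the minima of 1500 UMIs and 750 genes. The libraries shared 10 barcode sequences, none of them central vein in both.

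Central vein and comparison barcodes were chosen as described in the report. Immune barcodes passed the same minima of UMIs and genes and had at least 2 *Ptprc* UMIs. They also had 0 UMIs of *Pecam1*, *Cdh5* and *Ptprb*, which may lower their share of other endothelial transcripts. UMIs were summed over barcodes and scaled to CPM over all genes but 114 mitochondrial and ribosomal protein genes, with a limit of 3 counts for a sum of 0. Cells are not replicates, so no differential test was run, and a ratio of at least 2-fold at 50 CPM or more was called. Thinning drew 3000 UMIs per barcode and left out 4 control and 7 Maf LSEC-KO central vein barcodes with fewer. The named genes were those of fixed lists, the 10 highest and 10 lowest ratios between the conditions and the 10 highest over comparison barcodes in both libraries. Members and lists were chosen with earlier results of these data known. Doublets were kept, and their removal by Scrublet (in scanpy 1.11.5) was an alternative: its automatic limits marked 1 and 0 barcodes and did not work, so the 197 and 235 highest scores were taken out. The ratio intervals were run on simulated Poisson counts, the model that they assume, so the spread between barcodes was not tested. Python 3.11.15, numpy 2.4.6, scipy 1.17.1 and pandas 2.3.3 were used. Gene positions came from GENCODE M21 (GRCm38).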

Additional observations from a re-analysis of the deposited data

Results flagged for a closer look

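For 3 haemoglobin genes the ratio of central vein to comparison barcodes went one way in control and the other way in Maf LSEC-KO, and the difference was not tested. The log2 ratio was 2.98 in control and -6.84 in Maf LSEC-KO for *Hbb-bs*, 2.73 and -5.62 for *Hba-a2*, and 2.89 and -4.64 for *Hba-a1*. In control, 1 central vein barcode held 4645 of the 4649 *Hbb-bs* UMIs.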

How the results depend on the processing

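No paired analysis was possible because each condition had 1 library, and no replicate could be left out. The rule with at least 6 *Vwf* and *Selp* UMIs and the removal of cycling barcodes were chosen after seeing the data. Of 37 genes past 2-fold between the conditions that were followed through each alternative, 24 kept their fold and direction under every alternative run. With at least 6 UMIs *Vwf* (log2 ratio 0.88), *Edn1*, *Eln*, *Ly6a*, *F8*, *Bmp2*, *Bmp6*, *Kitl*, *Pdgfb* and *Bmx* of these came within 2-fold. So did the other named genes *Fzd6*, *Icam1*, *Lama4*, *Fmo2*, *Col14a1*, *Samd5* and *Rassf9*, while *Sparc*, *Efnb2*, *Dll4* and 1 of the Maf family and endothelial factors passed it. Under the stricter rule *Ly6a* (0.97), *Edn1* (0.84), *Bmp2* (-0.86), *Eln* (0.69), *Pdgfb* (0.84) and *Kitl* (0.92) also came within 2-fold. *Pdgfb* and *F8* did so under the thinned rule (0.82 and -0.97) and by the mean over barcodes (0.63 and -0.93). With a *Wnt9b* UMI also asked for, *Pdgfb* (0.97) and *Kitl* (0.99) did so, as did *Pdgfb* in thinned barcodes (0.80). *Kitl* did so with all genes in the total (0.92) and by the median of ratios (0.95). *Hbb-bs* did so without the highest doublet scores (-0.93) and *Igfbp5* under the thinned rule (0.95). Without cycling barcodes *F8* did so (-0.98), and *Mki67* turned to -0.025. Depth limits transcripts at few UMIs, such as *Aplnr*, *Ly6c1* and *Fcor* in control.

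The share of central vein barcodes in control was 1.49% (3.06% in Maf LSEC-KO) under the stricter rule (5 *Rspo3* and 3 *Vwf* and *Selp* UMIs), 1.88% when a *Wnt9b* UMI was also asked for, 1.97% in thinned barcodes and 0.975% with at least 6 UMIs. In Maf LSEC-KO it was 2.30% with *Wnt9b*, 2.54% thinned and 2.64% with at least 6 UMIs. With a minimum of 5 *Maf* UMIs in place of 2, the share of Maf LSEC-KO central vein barcodes was 2.92%. Between the conditions, the higher genes numbered 149 under the thinned rule, 407 with thinned barcodes, 544 at a minimum of 20 CPM and 126 at 100 CPM, and the lower genes 278 thinned, 269 at 20 CPM, 113 at 100 CPM and 110 with at least 6 UMIs. Against comparison barcodes in control, the higher genes numbered 254 at 20 CPM, 92 at 100 CPM and 277 with at least 6 UMIs, and the lower genes 153 under the stricter rule, 145 under the thinned rule, 126 thinned, 133 at 20 CPM, 41 at 100 CPM and 241 with at least 6 UMIs. In Maf LSEC-KO, 382 were higher at 20 CPM, and the lower genes numbered 262 under the thinned rule, 253 by the mean over barcodes, 309 thinned, 265 at 20 CPM, 73 at 100 CPM and 228 without cycling barcodes.

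Gene group medians between the conditions moved as follows. With thinned barcodes they were -0.66 (pericentral), -1.45 (sinusoidal), 1.11 (portal and arterial), 0.15 (angiocrine ligands), 0.32 (venous and continuous), 0.24 (flow), -2.51 (lowered in the study) and 1.24 (immediate early). Under the stricter rule they were 0.22 (angiocrine ligands), 0.26 (flow), 0.69 (matrix), -2.18 (lowered in the study) and 1.53 (immediate early). With *Wnt9b* they were 0.10 (angiocrine ligands), 0.28 (flow) and -2.49 (lowered in the study). With at least 6 UMIs they were 0.18 (angiocrine ligands), 0.17 (flow), 0.66 (matrix), -2.07 (lowered in the study) and 1.37 (immediate early). Under the thinned rule they were 0.13 (flow) and 1.23 (immediate early), and by the mean over barcodes 0.23 (angiocrine ligands) and 1.48 (immediate early). At 100 CPM they were -0.20 (portal and arterial) and 0.10 (angiocrine ligands), and at 20 CPM 0.65 (Weibel-Palade bodies). Without cycling barcodes they were -0.64 (pericentral), 0.98 (Weibel-Palade bodies) and 0.24 (venous and continuous). Without barcodes that held transcripts of other cell types the median was -3.72 (lowered in the study). At 20 and 100 CPM the number of genes tested differed by construction, and for the other alternatives the cause was not tested.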
